A study of Oryctolagus cuniculus with 4 samples.

Results

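The transforming growth factor beta (TGF-beta) family comprises secreted ligands, the latency proteins that hold some of them in the matrix, cell surface receptors and the intracellular SMAD proteins. Members were taken as the genes whose symbol begins with TGFB, SMAD, BMP, INHB, ACVR or LTBP, or with GDF and a digit. This rule found 39 of the 13913 genes in the table, and 32 of them had a mean of at least 1 unit over the libraries and were tested. One unit is 1 part in 1000000 of the summed expression of a library. By role, the 39 members were 2 TGF-beta ligands, 12 BMP and GDF ligands, 2 activin subunits, 2 latency proteins, 11 receptors, 6 SMADs and 4 other genes that share the name.

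A dimeric ligand of this family binds a pair of type II and a pair of type I receptors, which phosphorylate receptor-regulated SMADs. TGF-beta and activins signal mainly through SMAD2 and SMAD3, and BMPs mainly through SMAD1, SMAD5 and a further relative, and both sets enter the nucleus with SMAD4. In skin, TGF-beta drives collagen synthesis and myofibroblast formation in scars, and BMPs pattern hair follicles and guide epidermal differentiation.

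The study asked how hypertrophic scar (HS) tissue responded to drug-loaded microneedles (MNs), patches whose degradable tips stay in the scar and release a 5-fluorouracil derivative from its prodrug. Scars were raised by wounding the ventral ear skin of wild-type female rabbits. The HS group comprised 2 scar tissues without treatment, and the drug-loaded MNs group comprised 2 scar tissues treated 1 time a week for 3 weeks and collected a week after the last application. No library of drug-free MNs was analysed here, so the effect of the drug and that of the needles cannot be told apart. The ventral epidermis and dermis were dissociated, and single-cell libraries were sequenced from their 3' ends. The table gives 1 value per gene and library, with the cells combined in a way that the sources do not state, so fewer cells of a type and less RNA per cell cannot be told apart. The sources call the samples separate tissues and biologically independent, without saying which animals they came from, and p-values measure only the spread between these tissues.

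The 4 libraries listed 11844 to 12059 genes above 0, and their depth is unknown. Of 9348 tested genes, 4 passed an adjusted p of 0.05 in the limma fit, or 0.0428%. These were ND4L and 3 genes without a symbol. Across all tested genes the log2 fold changes had a median of 0.12, which a median ratio scaling moved to -0.010. The epidermis and dermis were both seen through their markers, keratins and dermal collagens. Fibroblast markers were higher in both drug-loaded MNs libraries than in both HS libraries for 6 of 6 genes, with a median log2 fold change of 1.12, and their summed level was 22996 and 22526 units in HS against 44682 and 48616 units in drug-loaded MNs. Macrophage markers were higher without overlap for 7 of 7 genes, with a median of 1.22, and their summed level was 120 and 130 units against 286 and 283 units. T cell markers (2 of 2 genes, median 1.19) were also higher without overlap. These were CD2 and CD4, the only ones measured of 6 listed, and CD2 was low in HS, at 0.559 and 1.24 units. Mural cell markers were above 0 for 4 of 4 genes, with a median of 0.55 and 2 of them without overlap. Of all tested genes, 26.6% were higher without overlap. Keratinocyte markers overlapped between the groups for 6 of 6 genes. The part of these markers in the results for the family was not tested.

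No family member passed the adjusted threshold in the limma fit (0 of 32). At an unadjusted p under 0.05, 7 members were higher in drug-loaded MNs, namely LTBP1, LTBP2, BMP3, BMP4, TGFBR2, TGFBR3 and INHBA, beside 7.26% of all tested genes. One member, BMP2, was lower at that level, beside 1.39% of all tested genes. The count of 7 was 1 without drug-loaded MNs replicate 1 (LTBP1), 4 without HS replicate 1, and 11 without HS replicate 2. BMP2 was no longer at that level when HS replicate 2 or either drug-loaded MNs library was left out, so the count was then 0.

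Both drug-loaded MNs libraries lay above both HS libraries for 14 of 32 members (43.8%), against 26.6% of all tested genes. Both lay below for 2 of 32 members (6.25%), BMP2 and BMPR1B, against 11.2% of all tested genes. The log2 fold change was above 0 for 27 of 32 members (84.4%), compared with 64.6% of all tested genes. The members' median was 0.31, and it was 0.18 under the median ratio scaling, 0.13 when drug-loaded MNs replicate 1 was left out and 0.48 when replicate 2 of that group was. Under the median ratio scaling the log2 fold change was above 0 for 23 of 32 members (71.9%), compared with 48.8% of all genes. Relative to the median of all genes, 23 of 32 members lay higher, and this count was 19 when HS replicate 1 was left out and 20 when drug-loaded MNs replicate 1 was. The plot of levels by library shows these members role by role.

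**Figure D1:**
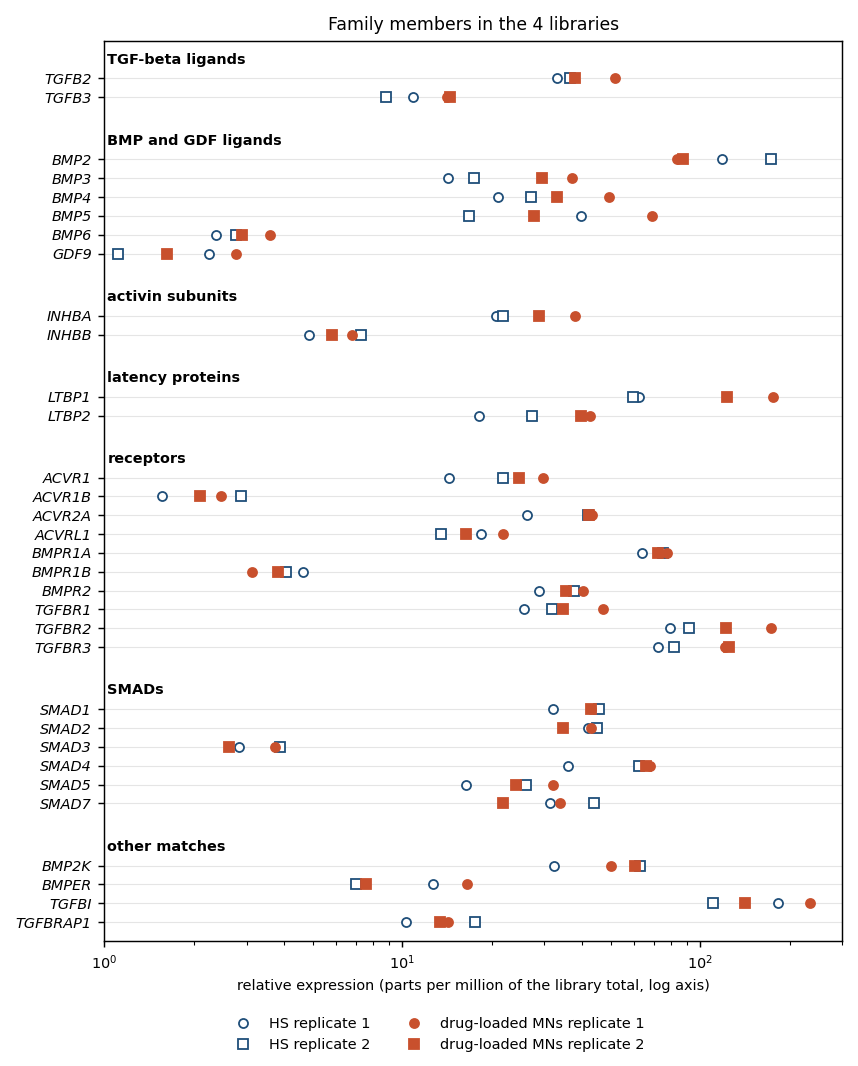
Relative expression of the 32 tested members in each library, in units (parts in 1000000 of the library total) on a log axis, with open symbols for HS and filled symbols for drug-loaded MNs and 1 point per library. The filled points of LTBP1 lie at 175 and 123 units, right of the open points at 62.1 and 59.5 units, whereas those of BMP2 lie at 83.3 and 87.2 units, left of the open points at 119 and 173 units.

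Among the latency proteins, both measured genes were higher in drug-loaded MNs. LTBP1 (ENSOCUG00000009598) encodes a latent TGF-beta binding protein that tethers the inactive TGF-beta complex to matrix fibres. It reached 62.1 and 59.5 units in HS and 175 and 123 units in drug-loaded MNs, a ratio of means of 2.45. The HS libraries were nearly equal, and both drug-loaded MNs libraries stood well above them. Its log2 fold change was 1.26 ± 0.25 (SE, n = 2 per group), the smallest p of the family (0.00116), with a limma adjusted p of 0.264. Leaving out drug-loaded MNs replicate 1 gave a log2 fold change of 1.01 and leaving out replicate 2 gave 1.51, and LTBP1 had an unadjusted p under 0.05 with any 1 of the 4 libraries left out.

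LTBP2 (ENSOCUG00000014077) is a fibrillin-associated relative of LTBP1 that does not bind latent TGF-beta. It reached 18.0 and 27.3 units in HS and 42.7 and 39.7 units in drug-loaded MNs. The groups did not overlap, and the log2 fold change was 0.86 ± 0.27 (SE) with a limma adjusted p of 0.417. The summed level of both genes was 80.1 and 86.8 units in HS and 218 and 163 units in drug-loaded MNs.

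The TGF-beta ligands themselves differed less between the groups. TGFB2 (ENSOCUG00000005279), an isoform with roles in development and in wound repair, reached 33.2 and 36.6 units in HS and 51.7 and 38.1 units in drug-loaded MNs. TGFB3 (ENSOCUG00000011415), an isoform studied for its part in scarless healing, reached 10.8 and 8.83 units against 14.1 and 14.4 units. Neither gene overlapped between the groups, although for TGFB2 HS replicate 2 and drug-loaded MNs replicate 2 were close. For TGFB2 the log2 fold change was 0.34 ± 0.25 (SE), with a limma adjusted p of 0.796, and leaving out drug-loaded MNs replicate 1 or 2 gave 0.12 or 0.56. For TGFB3 it was 0.50 ± 0.27 (SE), with a limma adjusted p of 0.702. TGFB1 was not analysed here, because no row carries that symbol.

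The ratio of LTBP1 to TGFB2 within a library, chosen after the values were seen and given without a test, was 0.91 and 0.70 on the log2 scale in HS against 1.76 and 1.69 in drug-loaded MNs. The groups did not overlap in this ratio.

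The BMP ligands, growth factors first described for bone formation, divided in direction. BMP2 (ENSOCUG00000011674), an osteogenic ligand also made by hair follicle and epidermal cells, reached 119 and 173 units in HS and 83.3 and 87.2 units in drug-loaded MNs. The drug-loaded MNs libraries were close together, and both lay below the lower HS library. This was a log2 fold change of -0.74 ± 0.25 (SE), an unadjusted p of 0.0197 and a limma adjusted p of 0.433. Without HS replicate 2 the log2 fold change was -0.47 and without HS replicate 1 it was -1.01, and its sign was the same in the 8 alternative fits that could move the value.

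BMP3 (ENSOCUG00000000658), an atypical ligand that counters osteogenic BMP signalling, reached 14.3 and 17.4 units in HS and 37.1 and 29.4 units in drug-loaded MNs. Every drug-loaded MNs value exceeded every HS value. BMP3 had a log2 fold change of 1.02 ± 0.26 (SE) with a limma adjusted p of 0.340.

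BMP4 (ENSOCUG00000011097), a ligand of dermal papilla and mesenchyme closely related to BMP2, reached 20.9 and 27.0 units in HS and 49.3 and 33.1 units in drug-loaded MNs. The groups did not overlap, but the drug-loaded MNs libraries differed from each other more than the HS libraries did. BMP4 had a log2 fold change of 0.74 ± 0.29 (SE) with a limma adjusted p of 0.517, and 0.46 was left without drug-loaded MNs replicate 1.

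Within each library, BMP4 relative to BMP2 was -2.50 and -2.68 on the log2 scale in HS against -0.76 and -1.40 in drug-loaded MNs. BMP3 relative to BMP2 was -3.06 and -3.31 in HS against -1.16 and -1.57 in drug-loaded MNs. Both ratios are free of the scaling of the libraries, and in both the groups did not overlap. That outcome was fixed, because BMP3 and BMP4 were higher and BMP2 was lower without overlap, so it adds no support. The ratios were chosen after the values were seen and are descriptions without a test. They compare the same pair of genes between libraries rather than the level of one gene with that of another. The summed level of all 12 BMP and GDF ligands was 201 and 239 units in HS and 247 and 183 units in drug-loaded MNs, which overlapped.

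Of the other BMP and GDF ligands, BMP5, a ligand expressed in cartilage and mesenchyme, reached 39.6 and 16.7 units in HS and 68.9 and 27.7 units in drug-loaded MNs. These groups overlapped, and replicate 1 was the higher library in both groups. BMP5 had a log2 fold change of 0.74, between 0.10 and 1.38 with 1 library left out. BMP6, a ligand known for its control of iron metabolism, did not overlap between the groups, at 2.37 and 2.76 units against 3.59 and 2.89 units, with a log2 fold change of 0.25 that was -0.03 after quantile normalization. GDF9, best known as an oocyte growth factor, ranged from 1.11 to 2.76 units, and its groups overlapped.

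In this role 6 members were below the limit for testing. BMP10 and GDF3 were listed at 0 in all 4 libraries. GDF11, a relative of myostatin, was listed at 0.355 and 0.240 units in HS and 0.955 and 0.579 units in drug-loaded MNs. GDF5, a joint and cartilage ligand, was listed at 2.31 and 0.0182 units in HS and 1.06 and 0.0652 units in drug-loaded MNs. GDF6 and GDF7 did not exceed 0.265 units in any library.

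The activin subunits also differed from each other. INHBA (ENSOCUG00000000621), the subunit of activin A, a ligand released in wound repair, reached 20.5 and 21.8 units in HS and 38.0 and 28.6 units in drug-loaded MNs. The groups did not overlap, and the log2 fold change was 0.62 ± 0.26 (SE) with a limma adjusted p of 0.559. INHBB (ENSOCUG00000005094), the subunit of activin B, reached 4.87 and 7.26 units in HS and 6.75 and 5.81 units in drug-loaded MNs. Its groups overlapped, with a log2 fold change of 0.06 ± 0.30 (SE) that was -0.061 under the median ratio scaling.

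**Figure D2:**
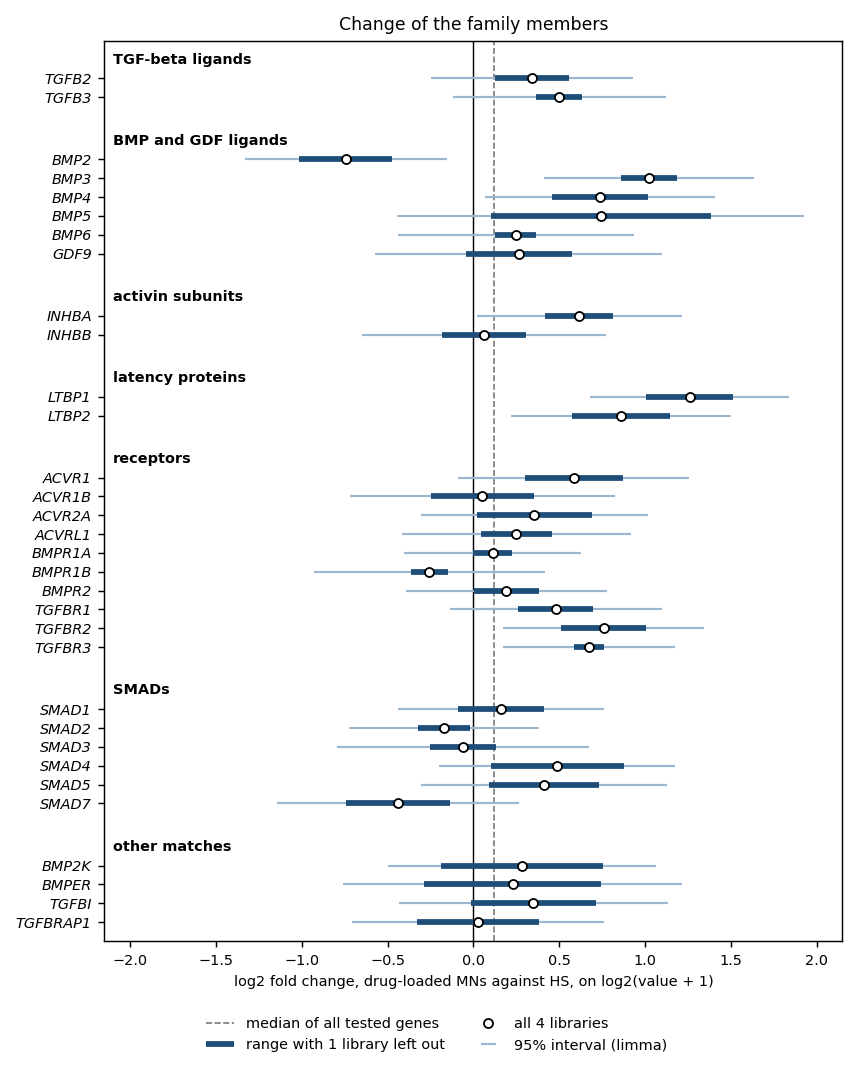
Log2 fold change of each tested member, drug-loaded MNs against HS, on log2(value + 1), with the limma 95% interval as a thin line, the range with 1 library left out as a thick line, and the median of all tested genes (0.12) as a dashed line. LTBP1 lies farthest right at 1.26 and BMP2 farthest left at -0.74, and the SMADs lie on both sides of 0, from -0.44 to 0.49.

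The receptors for TGF-beta were higher in both drug-loaded MNs libraries than in both HS libraries for 3 of 3 genes, against 26.6% of all tested genes, as the plot of changes by member shows. TGFBR2 (ENSOCUG00000015963), the type II receptor that binds TGF-beta first, reached 79.3 and 91.7 units in HS and 173 and 122 units in drug-loaded MNs. TGFBR3 (ENSOCUG00000016083), betaglycan, a co-receptor that presents TGF-beta2, reached 72.0 and 81.4 units against 121 and 125 units. TGFBR1 (ENSOCUG00000016292), the type I kinase, reached 25.7 and 31.8 units against 47.1 and 34.5 units. TGFBR3 had the tightest drug-loaded MNs values of the 3 genes, whereas TGFBR1 left a gap of under 3 units between HS replicate 2 and drug-loaded MNs replicate 2.

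For TGFBR2 the log2 fold change was 0.76 ± 0.25 (SE) with a limma adjusted p of 0.428, and it was 0.51 without drug-loaded MNs replicate 1. That of TGFBR3 was 0.67 ± 0.21 (SE) with a limma adjusted p of 0.417, between 0.59 and 0.76 with any 1 library left out. That of TGFBR1 was 0.48 ± 0.26 (SE) with a limma adjusted p of 0.712, and it was 0.26 without drug-loaded MNs replicate 1. The direction of all 3 was the same in the 8 alternative fits that could move the value, which are the other scalings and pseudocounts and the fits without 1 library.

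Among the tested activin and BMP receptors, only BMPR1B had a log2 fold change below 0 in the limma fit of all 4 libraries. ACVR1 (ENSOCUG00000002439), a type I receptor for BMPs whose activating mutations cause bone to form in soft tissue, reached 14.3 and 21.8 units in HS and 29.6 and 24.7 units in drug-loaded MNs. Its groups did not overlap, and the log2 fold change was 0.59 ± 0.29 (SE) with a limma adjusted p of 0.673. It was 0.30 without HS replicate 1 and 0.87 without HS replicate 2. ACVR2A, a type II receptor for activins, also lay higher without overlap, at 26.2 and 42.1 units against 43.3 and 42.3 units. HS replicate 1 alone stood apart for ACVR2A, whose log2 fold change was 0.36 with all libraries and 0.02 without HS replicate 1, and its groups overlapped under the median ratio scaling.

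BMPR1B, a type I receptor prominent in cartilage, was the only tested receptor that was lower without overlap, at 4.62 and 4.05 units in HS and 3.14 and 3.82 units in drug-loaded MNs. Its log2 fold change was -0.26 ± 0.29 (SE) with a limma adjusted p of 0.877. The groups overlapped for BMPR1A and BMPR2, type I and type II receptors for BMPs, with log2 fold changes of 0.11 and 0.19. They also overlapped for ACVR1B, a type I activin receptor, and for ACVRL1, a type I receptor of endothelial cells, at 0.05 and 0.25. The signs of ACVR1B and BMPR1A turned under the median ratio scaling. ACVR1C, a type I receptor for nodal and related ligands, did not exceed 0.293 units and was not tested.

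The SMADs showed no common direction. Of 6 tested genes, 3 had a log2 fold change above 0 and 3 below, with a median of 0.05 (-0.07 under the median ratio scaling), and 5 of 6 overlapped between the groups. The remaining 1 was higher without overlap (16.7%, against 26.6% of all tested genes), and 0 were lower (against 11.2%). SMAD4 (ENSOCUG00000003929), the partner shared by the TGF-beta and BMP branches, reached 36.0 and 62.2 units in HS and 67.7 and 66.0 units in drug-loaded MNs. HS replicate 1 was low and the other 3 libraries were close together. SMAD4 had a log2 fold change of 0.49 ± 0.29 (SE) with a limma adjusted p of 0.740, which was 0.10 without HS replicate 1, and the groups overlapped under the median ratio scaling.

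SMAD2 (ENSOCUG00000011290), a carrier of TGF-beta and activin signals, reached 41.9 and 45.2 units in HS and 42.8 and 34.6 units in drug-loaded MNs. SMAD3 (ENSOCUG00000029601), the other carrier of these signals and a direct activator of collagen genes, reached 2.82 and 3.88 units against 3.73 and 2.63 units. The groups overlapped for both, with log2 fold changes of -0.17 ± 0.24 (SE) and -0.06 ± 0.31 (SE). The limma adjusted p was 0.897 for SMAD2 and 0.975 for SMAD3, and SMAD3 was above 0, at 0.12 and 0.13, without replicate 2 of HS or of drug-loaded MNs. SMAD2 ranged from -0.32 to -0.022 with 1 library left out.

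SMAD1 (ENSOCUG00000017920), a carrier of BMP signals, reached 32.0 and 45.7 units in HS and 43.0 and 42.8 units in drug-loaded MNs. SMAD5 (ENSOCUG00000004937), which carries the same signals, reached 16.4 and 26.1 units against 32.1 and 24.1 units. In both genes HS replicate 1 was the lowest library and the groups overlapped. SMAD1 had a log2 fold change of 0.16 ± 0.26 (SE) with a limma adjusted p of 0.911, and the value was -0.088 without HS replicate 1. For SMAD5 it was 0.41 ± 0.31 (SE) with a limma adjusted p of 0.796, and leaving out HS replicate 1 gave 0.090 and HS replicate 2 gave 0.73, while 0.21 was left without drug-loaded MNs replicate 1.

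SMAD7 (ENSOCUG00000024309), the inhibitory SMAD that TGF-beta itself induces and that blocks the type I receptor, reached 31.4 and 44.1 units in HS and 33.7 and 21.9 units in drug-loaded MNs. The groups overlapped because drug-loaded MNs replicate 1 exceeded HS replicate 1. The log2 fold change was -0.44 ± 0.30 (SE) with a limma adjusted p of 0.772. With 1 library left out it ran from -0.74 (drug-loaded MNs replicate 1) to -0.14 (drug-loaded MNs replicate 2), with -0.68 and -0.20 for HS replicates 1 and 2. Under the median ratio scaling SMAD7 and SMAD2 were lower without overlap, which raised the count of such members from 2 to 4. The count of members higher without overlap fell from 14 to 12 in that fit. The same scaling moved the median of all tested genes from 0.12 to -0.010. The share of all genes lower without overlap under it is not given here.

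SMAD4 relative to SMAD7 within a library was 0.20 and 0.50 on the log2 scale in HS against 1.0 and 1.59 in drug-loaded MNs. SMAD5 relative to SMAD7 was -0.94 and -0.76 in HS against -0.07 and 0.14 in drug-loaded MNs. Neither ratio overlapped between the groups, whereas SMAD2 relative to SMAD7 did, at 0.42 and 0.04 against 0.34 and 0.66. These pairs were chosen after the values were seen and are descriptions without a test.

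The 4 other matches share part of the name and not the signalling role, and all 4 overlapped between the groups. TGFBI, a matrix protein induced by TGF-beta, reached 182 and 111 units in HS and 234 and 141 units in drug-loaded MNs. BMPER, a secreted BMP binding protein, reached 12.6 and 7.0 units against 16.5 and 7.57 units. In both genes the replicate 1 library was the higher one in both groups. BMP2K, a kinase linked to endocytosis, had a log2 fold change of 0.28, and TGFBRAP1, a receptor-associated trafficking protein, had one of 0.03 that was negative under the median ratio scaling. For each of the 4 genes the value was below 0 with some 1 library left out.

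A further 4 sets of pathway genes that do not carry the family names were followed beside the members. The extracellular regulators bind or activate the ligands, and 20 of 29 listed genes were tested. Their median log2 fold change was 0.15, and it was 0.021 under the median ratio scaling. Of the 20 genes, 8 were higher without overlap (against 26.6% of all tested genes) and none was lower (against 11.2%). At an unadjusted p under 0.05, 6 were higher (against 7.26%), with 0 of 20 past the limma adjusted threshold. FSTL1, a secreted glycoprotein related to follistatin that binds BMPs, reached 50.8 and 59.9 units in HS and 159 and 116 units in drug-loaded MNs, a log2 fold change of 1.28 with a limma adjusted p of 0.264. FBN2, a fibrillin of the microfibrils to which latency proteins attach, had a log2 fold change of 1.72, which ranged from 0.99 to 2.45 with any 1 library left out.

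DCN, decorin, a proteoglycan that binds collagen and TGF-beta, had a log2 fold change of 0.90, and CHRDL1, a BMP antagonist, had one of 0.83. The groups did not overlap for either gene. DCN is also one of the fibroblast markers.

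The intracellular regulators modify SMADs or receptors, and 14 of 17 listed genes were tested. Their median log2 fold change was 0.04 and lay on the other side of 0 under the median ratio scaling, at -0.10. In this set 12 of 14 genes overlapped between the groups, none was at an unadjusted p under 0.05 and 0 passed the limma adjusted threshold. The remaining genes, TGIF1 and STRAP, both known to restrain TGF-beta signalling, were lower without overlap, with log2 fold changes of -0.45 and -0.13. They made up 14.3% of the set, close to the 11.2% of all tested genes that were lower without overlap. None was higher without overlap, against 26.6% of all tested genes.

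The TGF-beta response genes, matrix and contractile genes that TGF-beta induces in fibroblasts, had 11 of 20 listed genes tested. Their median log2 fold change was 0.87, and 7 of 11 were higher without overlap and at an unadjusted p under 0.05 (63.6%), where 26.6% and 7.26% of all tested genes met each rule, with 0 of 11 past the limma adjusted threshold. CTHRC1, a secreted protein of activated fibroblasts, reached 155 and 187 units in HS and 419 and 388 units in drug-loaded MNs, a log2 fold change of 1.24 with a limma adjusted p of 0.264. The collagen genes COL3A1 and COL1A1 had log2 fold changes of 1.46 and 1.39, and LOX, which crosslinks collagen, had one of 1.0. COL1A1, COL1A2 and COL3A1 are also fibroblast markers, and those markers as a whole had the median of 1.12 given above.

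In the same set KLF10, a transcription factor that TGF-beta induces within a short time, was lower without overlap, at 845 and 1028 units in HS and 561 and 734 units in drug-loaded MNs. Its log2 fold change was -0.54 with a limma adjusted p of 0.619. CCN2, a matricellular protein widely used as a readout of TGF-beta, overlapped between the groups at 304 and 67.2 units in HS and 322 and 102 units in drug-loaded MNs. KLF10 and CCN2 were named after their values were seen.

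**Figure D3:**
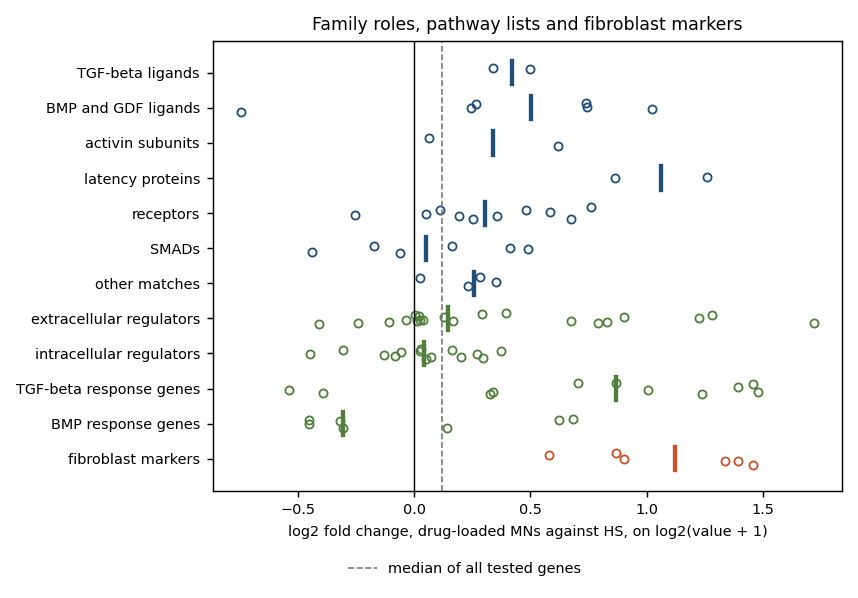
Log2 fold change of each tested gene, drug-loaded MNs against HS, on log2(value + 1), by role for the members (blue), by list for the other pathway genes (green) and for the fibroblast markers (orange), with a bar at each median and a dashed line at the median of all tested genes. The medians run from -0.30 for the BMP response genes to 0.87 for the TGF-beta response genes, 1.06 for the latency proteins and 1.12 for the fibroblast markers.

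The BMP response genes, transcription factors that SMAD1 and SMAD5 switch on, had 7 of 10 listed genes tested. Their median log2 fold change was -0.30 and the mean was -0.011, since 4 genes lay below 0 and 3 above. Of the 7, 4 were lower without overlap, against 11.2% of all tested genes. None of these 4 genes was at an unadjusted p under 0.05, and 0 of 7 passed the limma adjusted threshold. ID1, an inhibitor of differentiation and a direct BMP target, reached 1626 and 1782 units in HS and 1369 and 1133 units in drug-loaded MNs. ID3, its close relative, reached 698 and 678 units against 539 and 564 units. The HS libraries were close together for both genes, and both drug-loaded MNs libraries lay below them.

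The log2 fold change was -0.45 ± 0.23 (SE) for ID1, with a limma adjusted p of 0.696. For ID3 it was -0.32 ± 0.21 (SE), with a limma adjusted p of 0.763. HEY1, a repressor also controlled by Notch, and MSX2, a homeobox factor of follicle and bone, were lower at -0.30 and -0.45. These 4 genes were named after their values were seen, and each kept a negative sign under both other scalings and with any 1 library left out.

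RUNX2, the regulator of osteoblast formation, lay in the opposite direction, at 14.5 and 13.1 units in HS and 23.5 and 22.0 units in drug-loaded MNs. Its log2 fold change was 0.68 with an unadjusted p of 0.0267 and a limma adjusted p of 0.479. ATOH8, a target of BMP signalling in endothelium and liver, and DLX5, a homeobox factor of bone, had log2 fold changes of 0.62 and 0.14, and their groups overlapped. The plot of BMP ligands and response genes sets all 7 genes beside BMP2, BMP3 and BMP4.

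**Figure D4:**
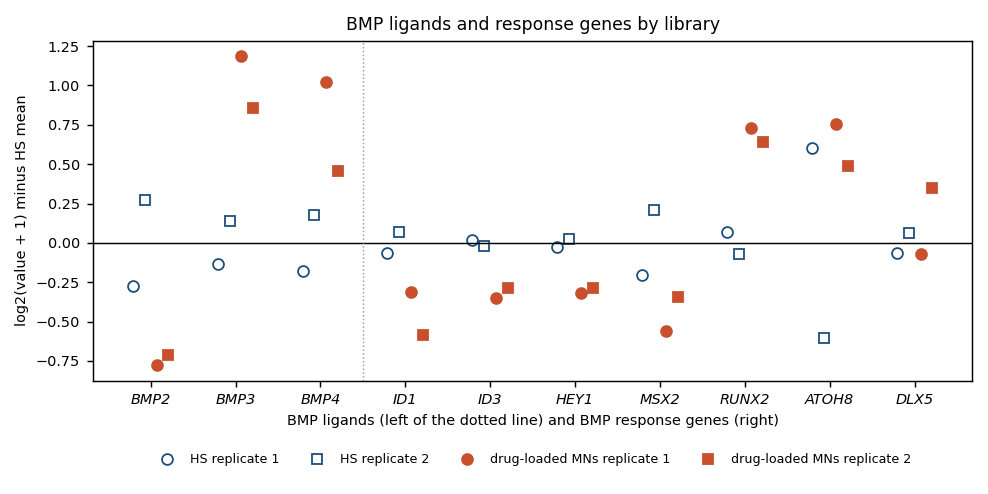
Values of 3 BMP ligands and the 7 tested BMP response genes in each library, on log2(value + 1) minus the mean of the HS libraries, with open symbols for HS and filled symbols for drug-loaded MNs. The filled points of BMP2, ID1, ID3, HEY1 and MSX2 lie below both open points, those of BMP3, BMP4 and RUNX2 lie above both, and those of ATOH8 and DLX5 overlap the open points. The ligands were chosen after their values were seen.

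Against the mean log2 level of the 6 fibroblast markers in the same library, a description without a test, none of the 32 members lay higher in drug-loaded MNs without overlap and 25 lay lower. Of all tested genes 0.385% lay higher and 87.9% lay lower without overlap on this scale, with a median difference of -0.97. LTBP1 stood at -4.45 and -4.72 in HS against -4.12 and -4.71 in drug-loaded MNs on this scale, so its groups overlapped and its mean difference was 0.17. BMP3 and LTBP2 overlapped as well, with differences of -0.07 and -0.23. TGFBR2 lay lower at -0.33, and BMP2 lay lower, at -3.53 and -3.19 in HS against -5.19 and -5.20 in drug-loaded MNs. The marker mean itself was 1.09 higher in drug-loaded MNs. The position of BMP2, lower without overlap before this step, was therefore fixed in advance. COL1A1, COL1A2 and COL3A1 are among both these markers and the TGF-beta response genes.

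HS replicate 2 lay above HS replicate 1 in 24 of 32 members, against 59.7% of all tested genes. Drug-loaded MNs replicate 1 lay above replicate 2 in 27 of 32 members, against 64.3% of all tested genes. In 6 of 32 members, BMP5, BMPER, TGFBI, GDF9, ACVRL1 and LTBP1, replicate 1 was the higher library in both groups. This was a smaller share than the 27.8% of all tested genes with that order. Among the members that were not tested, GDF5 had the same order. The summed level of the 4 measured chondrocyte markers also had it, at 396 and 98.2 units in HS and 234 and 151 units in drug-loaded MNs, and so had the 4 measured Schwann cell markers, at 433 and 86.9 units against 288 and 165 units. Cartilage lies directly beneath the ventral dermis of the ear, and the part of these markers in the levels of BMP5 and GDF5 was not tested.

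**Figure D5:**
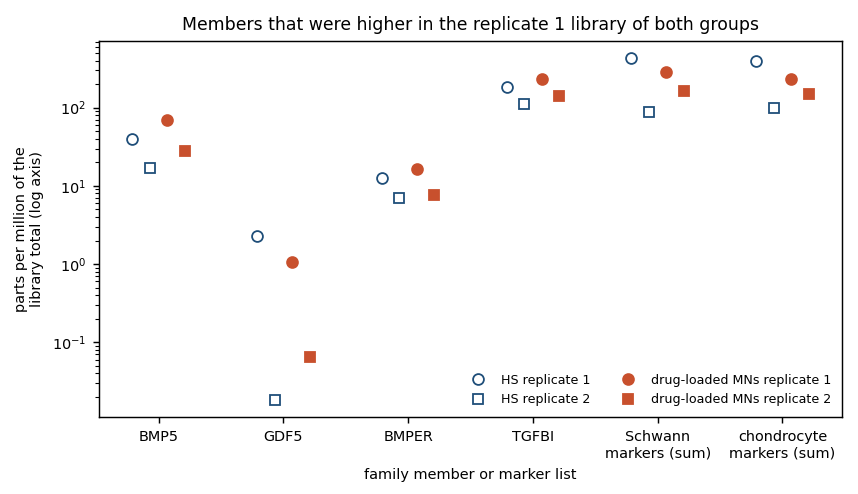
Levels of BMP5, GDF5, BMPER and TGFBI and the summed levels of the Schwann cell and chondrocyte markers in each library, in units (parts in 1000000 of the library total) on a log axis. The genes were chosen after their values were seen. In each column the circles (replicate 1) lie above the squares (replicate 2) of the same group, with the widest gap for GDF5 in HS, 2.31 against 0.0182 units.

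The distance between the groups also depended on which libraries were paired. The median log2 difference of the 32 members was 0.46 from HS replicate 1 to drug-loaded MNs replicate 1 and 0.07 from HS replicate 2 to drug-loaded MNs replicate 2. It was 0.36 from HS replicate 2 to drug-loaded MNs replicate 1 and 0.32 from HS replicate 1 to drug-loaded MNs replicate 2. For all tested genes the same pairs gave 0.25, -0.016, 0.11 and 0.14, in that order. Within the groups, the members' median difference was 0.29 from HS replicate 1 to HS replicate 2 and -0.28 from drug-loaded MNs replicate 1 to replicate 2. For all tested genes these were 0.12 and -0.11. The members' values stand beside their median log2 fold change between the groups of 0.31.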

How the data were processed

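Gene expression was measured in 4 single-cell libraries, 2 from HS and 2 from drug-loaded MNs. Per the labels, the authors used Cell Ranger 2.1.1 and the mouse build mm10, although the gene identifiers are rabbit Ensembl ones, so how reads were assigned to rabbit genes is not given in the sources used here. The methods state a filter on mitochondrial share and a correction between samples, and do not say whether it touched these values. The deposited table is named FPKM, but each column totals 10000, so its unit was taken as a relative expression with no fixed name, and how cells were combined is not stated. How doublets were treated is not given in the sources used here. Whole reads could not be recovered (18.6% to 21.7% of low values lay within 0.1 of a whole step), so no count model or depth interval was used. Each column was rescaled to 1000000 units.

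Testing covered genes whose mean over the 4 libraries reached 1 unit, on log2(value + 1), with limma 3.58.1 (eBayes with trend, two-sided) in R 4.3.3, with Benjamini-Hochberg adjustment over 9348 genes and a threshold of 0.05. The log2(value + 1) scale understates fold changes of low genes. With 2 against 2 libraries an exact permutation test cannot reach that threshold and was not used. The fit was tested on simulated data. Each member was named, with values for the TGF-beta ligands and receptors, SMADs, LTBPs, activin subunits, BMP2, BMP4 and non-overlapping members with an absolute log2 fold change of at least 0.5. From each pathway list, up to 4 non-overlapping genes at an unadjusted p under 0.05 were named by smallest p. The members and lists were chosen with earlier results of these data known. All 39 symbols were found among RefSeq genes, whose assembly differs, so no coordinates are given.

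Alternatives were 2 other scalings (median ratio, quantile), other pseudocounts and minimum means, no trend, the replicate number as a block, and leaving out each library.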

Additional observations from a re-analysis of the deposited data

How the results depend on the processing

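The direction of LTBP1, LTBP2, BMP2, BMP3, BMP4, INHBA, ACVR1, TGFB2, TGFB3, TGFBR1, TGFBR2, TGFBR3, SMAD2, SMAD4, SMAD5 and SMAD7 was the same in the 8 alternative fits that could move it (2 scalings, 2 pseudocounts and 4 fits without 1 library). With 1 library left out, SMAD1 ranged from -0.088 to 0.41, SMAD3 from -0.25 to 0.13 and INHBB from -0.18 to 0.31 on the log2 scale, and INHBB was -0.061 under the median ratio scaling and -0.18 after quantile normalization. Such fits take the spread of the lone library from that of the group with 2. Leaving out 1 library moved the members higher at an unadjusted p under 0.05 to between 1 and 11 and those lower to between 0 and 1. Members higher without overlap numbered 14 in the main fit and 12 under the median ratio scaling or after quantile normalization. Members lower without overlap numbered 4 under the median ratio scaling (BMP2, BMPR1B, SMAD2, SMAD7), 5 after quantile normalization (SMAD3 in addition) and 1 at a minimum mean of 5 units (BMP2). The cause was not tested beyond the last, where BMPR1B was not among the genes kept.

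With the replicate number as a block, 1 member passed the limma adjusted threshold, LTBP1 (adjusted p = 0.00161, between that and 0.590 over the alternatives), and all genes past it numbered 241 against 4 without the block. Leaving out 1 library gave 0 to 75 such genes. Across genes, the log2 difference between replicates 1 and 2 of HS was correlated with that of drug-loaded MNs. The correlation was 0.22 over all tested genes and 0.68 over the 32 members. A correlation leaves out any shift common to the members. Their median difference was 0.29 from HS replicate 1 to 2 and -0.28 from drug-loaded MNs replicate 1 to 2. The labels state no shared animal or day, and 2 pairs cannot establish a pairing. Unknown depth and 2 libraries per group limit the precision of every value.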
